A study of Rattus norvegicus with 17 samples.

Results

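The effect of a spinal contusion was followed across all 17 rats of the series by setting the 8 injured cords against the 9 intact ones. The rats were chosen by the group letter that ends each sample name: B, C and D for injured rats, A and E for rats with a sham injury. All 17 of 17 rats entered, and 15460 of the 32494 genes in the count table had enough counts to be tested. Group A held 4 rats with sham injury and sham stimulation, and group E 5 rats with sham injury and stimulation of the nucleus raphe magnus (NRM), a serotonergic nucleus of the lower brainstem. Group B held 3 rats with spinal cord injury (SCI) and sham stimulation, group C 3 with SCI and stimulation, and group D 2 with SCI, stimulation and the receptor antagonist pimozide at 1 mg/kg.

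The animals were young adult female Sprague-Dawley rats of one strain with no genetic modification, and each sample is 1 rat. The SCI was made by dropping a weight on the exposed thoracic cord, at moderate severity, and the sham-injured rats had the vertebra opened without a contusion. Stimulation lasted 2 h and was given 3 days after surgery. All groups shared the electrode implant, the anesthesia, the analgesic and the antibiotic, so the control rats were operated animals and not untouched ones. The treatment label of group E calls its rats unstimulated, against the sample name and the study's methods, and this touches no grouping by injury. Comparisons below that read E as stimulated rats follow the sample name and the methods.

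Blocks of the cervical, thoracic and lumbar cord with their membranes were combined in 1 library per rat before sequencing of RNA depleted of ribosomal RNA. The counts therefore average the lesion with cord above and below it, and in such bulk tissue fewer cells of a type cannot be told apart from less RNA per cell. Total counts ranged from 9852873 to 14137717 per rat. Between rats of a group the counts spread 4.19 to 38.0 times as widely as counting error alone (chi-square per degree of freedom). Rats numbered 69 to 76 form one run of numbers (both D rats, 1 A and 1 E) and rats 82 to 95 another (the remaining A and E rats and all of B and C).

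A contusion kills cells at the impact, opens the blood-spinal cord barrier and sets off a wave of inflammation. Within hours to days neutrophils and then monocytes enter from the blood, resident microglia and astrocytes become reactive, and cells at the lesion edge divide. Type I interferons are among the signals of that response, and they switch on antiviral genes such as the Mx and Oas families. Neurons and oligodendrocytes are lost at the same time, so transcripts of both gained and lost cell types change in a tissue block. The table carries only Ensembl identifiers, and 99 of them could be paired with a symbol, of which 98 were tested. The usual markers of spinal cord, glia, macrophages and dividing cells were not among them, so the labelled tissue could not be checked against its markers.

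Injury raised many genes strongly and lowered many genes slightly. In the quasi-likelihood test of edgeR, with the Benjamini-Hochberg method for the FDR, 3471 genes rose at an FDR under 0.05 (22.5% of genes tested) and 3505 fell (22.7%). The genes that rose had a median log2(FC) of 0.59, and 1077 of them (31.0%) passed a log2(FC) of 1. The genes that fell had a median log2(FC) of -0.32, and 60 of them (1.71%) passed -1. The 1077 rises and 60 falls beyond both limits, 6.97% and 0.388% of genes tested, are the genes named as called below. Of the called rises, 412 exceeded a log2(FC) of 2 and 111 exceeded 3, whereas 2 falls passed -2. The median over all genes tested was -0.033.

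**Figure D1:**
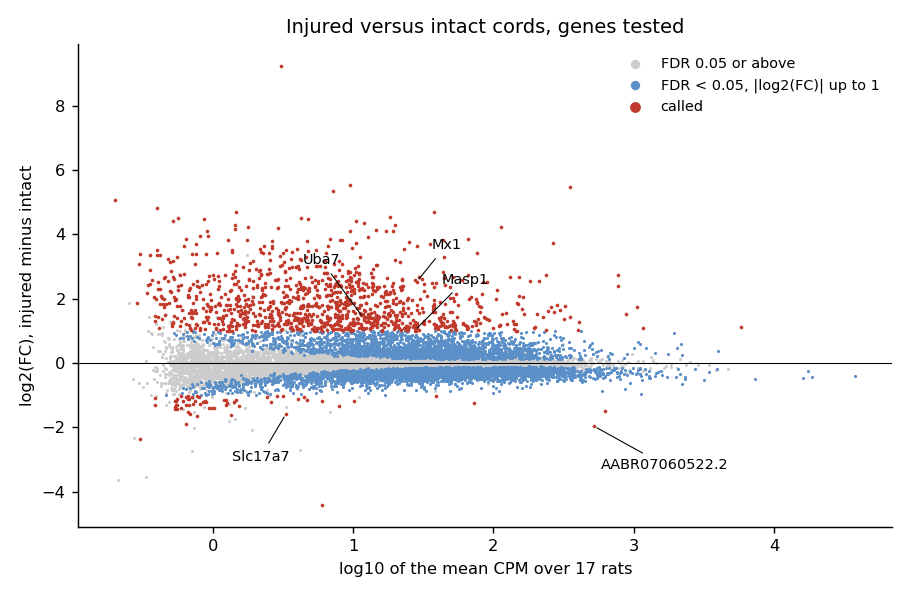
Log2(FC) of injured minus intact cords against the log10 of the mean CPM over 17 rats, 1 point per gene tested. The 1077 called rises spread upward over a wide range, the 60 called falls lie mostly at low levels, and most genes that fell stay between -1 and 0.

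The rises and falls that passed the FDR also lay at different levels of expression. Among the 945 genes with a mean below 1 CPM (counts per 1000000 counts of the rat, scaled by TMM), 16.4% rose and 6.98% fell. Among the 2141 genes at 100 CPM or more, 19.7% rose and 42.4% fell. The power to pass the FDR also depends on the level, and its part in these shares was not tested. Calls also require a log2(FC) beyond 1. Their share for rises was 14% below 1 CPM and 2.34% at 100 CPM or more. For falls it was 3.7% and 0.0934%, with the lowest share, 0.0361%, at 10 to 100 CPM. The falls of abundant genes were thus numerous and small: 907 passed the FDR at 100 CPM or more and 2 of these were called.

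The lowest p-values belonged to genes for which only identifiers could be given. ENSRNOG00000014961 had 144 to 227 CPM in the 8 injured rats (median 190.0) and 32.6 to 42.7 CPM in the 9 intact rats (median 38.1). Its log2(FC) was 2.26 ± 0.081 (SE, FDR 2.8e-11), and it lay between 2.13 and 2.39 in the 6 pairs of an injured with an intact group. ENSRNOG00000023546 had 220.0 to 346 CPM in injured rats and 55.6 to 72.7 CPM in intact rats, with a log2(FC) of 2.06 ± 0.077 (SE). Among the falls, ENSRNOG00000015550 had 498 to 1100 CPM in injured rats (median 793) and 1210 to 1760 CPM in intact rats (median 1430), a log2(FC) of -0.96 ± 0.086 (SE). ENSRNOG00000027742 had 7.65 to 9.67 CPM in injured rats and 12.5 to 20.4 CPM in intact rats, a log2(FC) of -0.92 ± 0.095 (SE). In each of these genes the injured and intact rats formed 2 ranges without overlap.

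Such separation was common among the genes that rose. The lowest injured rat exceeded the highest intact rat in 749 of the 1077 called rises (69.5%), where 8.52% of all genes tested did so. The highest injured rat was below the lowest intact rat in 8 of the 60 called falls (13.3%), where 2.66% of all genes did so. These counts use the same contrast as the calls and are given as a description. Presence against complete absence was rare: 1 gene had no count in the 9 intact rats and at least 1 count in each injured rat, and no gene showed the reverse.

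The direction of the injury effect was then checked in each injured group against each intact group. The 6 pairs (B, C and D, each minus A and minus E) all had the same sign in 1118 of the 1137 called genes. This held for 1073 of the 1077 rises and 45 of the 60 falls, while 28% of all genes tested were higher and 31.2% lower in all 6 pairs. With the FDR alone, 3340 of 3471 rises and 3305 of 3505 falls kept their sign in all 6. The 6 pairs share groups and are not independent. Each pair taken alone gave from 787 called rises in B minus A to 1155 in D minus A, and from 33 called falls in B minus A to 151 in C minus E.

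B minus A and C minus E share no rat, so one can be read in the other, with the gene filter and dispersions estimated from all rats. In unstimulated rats, B minus A gave 787 called rises (5.09% of genes tested) and 33 called falls (0.213%). Of the 787 rises, 785 were also higher in C minus E (47.5% of all genes were), 719 were called there (91.4%) and their median log2(FC) there was 1.88. The 3 rats of C lay above all 5 rats of E in 702 of these genes (89.2%), against 15.2% of all genes. Of the 33 falls, 29 were also lower in C minus E (87.9%, against 52.5% of all genes), and 7 were called there (21.2%), with a median of -0.63. In D minus E 29 of the 33 were lower (against 53.7% of all genes), with a median of -0.80.

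The reverse reading gave a similar contrast between rises and falls. C minus E had 1134 called rises (7.34%) and 151 called falls (0.977%). Of the rises, 1084 were higher in B minus A, where 719 were called (63.4%). Of the falls, 132 were lower in B minus A (87.4%, against 52.8% of all genes), where 7 were called (4.64%). In D minus A, which also shares no rat with C minus E, 61 of the 151 falls were lower (40.4%, against 53.6% of all genes), with a median of 0.33. Of the 151 falls, 28 were small and structural RNAs with a symbol, described further on, whereas 0 of the 33 falls of B minus A were. Of the other 123, 105 were lower in B minus A (85.4%, median -0.50) and 61 in D minus A (49.6%, median 0.011). Small RNAs without a symbol could not be recognized and may remain among the 123 and the 33. Between B minus A and C minus E, most called rises were thus called in both, whereas falls mostly kept their sign without being called again.

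Across the 15460 genes the log2(FC) of B minus A and of C minus E had a Pearson r of 0.785, a description over genes, which are not independent replicates. Called genes common to both numbered 726, which is 88.5% of the 820 in B minus A and 56.5% of the 1285 in C minus E. With each contrast fitted on its own rats alone, 860 and 1134 genes were called and 724 were common to both. The larger number in C minus E is no test of a larger effect. The difference (C minus E) minus (B minus A) passed an FDR of 0.05 in 0 genes with edgeR's quasi-likelihood test and in 0 with DESeq2, and 635 and 585 genes had an unadjusted p under 0.05. Without rat 82 of group A, 3 genes passed.

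**Figure D2:**
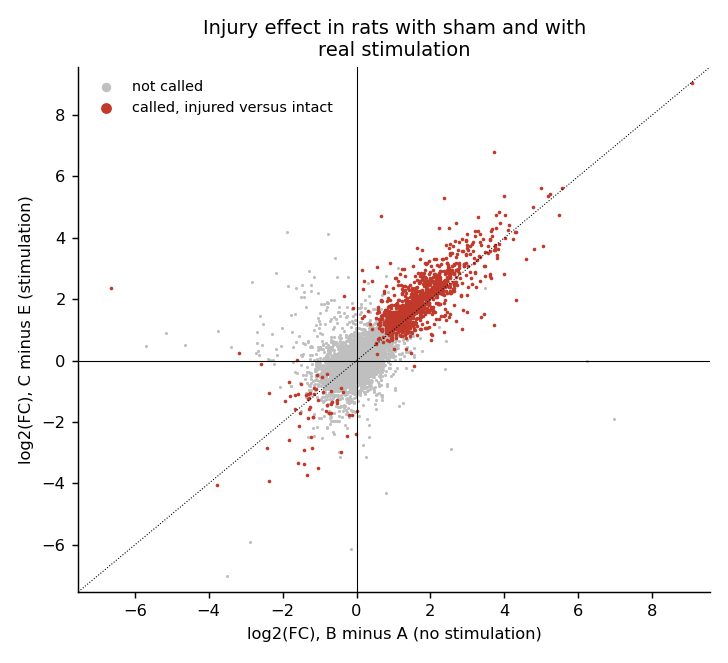
Log2(FC) of B minus A (rats without stimulation) on the x axis and of C minus E (stimulated rats) on the y axis, 1 point per gene, with the line of equality dotted. Called rises form a band along the line in the upper right, and called falls scatter more widely in the lower left.

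The same genes were followed in single rats. The 787 genes called higher in B minus A took 1.12 to 1.35% of the counts in the 5 rats of E, 2.95 to 5.70% in the 3 rats of C and 3.27 and 5.44% in the 2 rats of D. Rats of C and D thus all lay above E. The contrast that chose these genes does not hold C, D or E, although all rats shared the gene filter and the estimate of dispersion. In 4 rats, 89, 90, 75 and 76, between 94.9% and 99.0% of the 787 genes stood above every rat of E, and in rat 93 of group C 90.5% did. Over all genes tested, 23.7% to 33.5% stood above every rat of E in these rats. The 1134 genes called higher in C minus E took 1.80 to 1.98% of the counts in A, 4.01 to 5.2% in B and 4.14 and 6.80% in D. For the 787 genes, the share of counts in the highest rat of C was 1.93 times that in the lowest.

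Both runs of rat numbers gave the predominance of rises. In rats 82 to 95 alone (B and C against A and E) 972 genes were called higher and 87 lower, and in rats 69 to 76 alone (2 D against 1 A and 1 E) 675 were called higher and 11 lower. The share of rises among genes passing the FDR was 53.6% in the first and 97.6% in the second, which has 4 rats. All rats with pimozide belong to the numbers 69 to 76, and all of B and C to 82 to 95, so for a difference of D from B and C the drug and the number run cannot be told apart. Within the numbers 69 to 76 both injured rats had pimozide and the intact rats did not, so there injury and drug cannot be told apart. This holds for every value of that run given below.

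Among the 64 protein-coding genes with a symbol, 11 rose (17.2%) and 4 fell (6.25%) at an FDR under 0.05, both shares below the 22.5% and 22.7% of all genes tested. The study listed them for changing with stimulation or pimozide in injured rats of this series, so they are no sample of the injury response, and a level in C or D that departs from the other injured groups is partly how they came to be listed. Only 10 of the 15 kept the same sign in all 6 pairs of groups.

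Genes of the interferon response gave 5 of the 11 rises. Of 6 genes of the interferon response that could be matched, out of a list of 30, 5 rose (Mx1, Oas2, Oasl, Mx2 and Ifit2), where 22.5% of all genes tested rose. The remaining member, Gbp6, which encodes an interferon-induced guanylate-binding protein, did not pass (log2(FC) -0.67 ± 0.67, SE, FDR 0.43). Its groups went apart, with a log2(FC) of -4.30 in C minus E (FDR 0.021), 0.79 in B minus A (FDR 0.55) and 1.80 in D minus A (FDR 0.12). The median log2(FC) of the 6 was 1.38, against -0.033 over all genes tested. Mx1, Oas2, Oasl, Mx2 and Ifit2 carry a symbol because of a difference between D and C. Their excess over all genes tested was thus partly built in by that choice and is no independent evidence of an injury response. The rises were more numerous in the pairs with group D. In edgeR's quasi-likelihood test 5 of the 6 rose in D minus A (14.6% of all genes tested rose) and 5 in D minus E (15.3%), with medians of 2.54 and 2.66. In the pairs with B and C, 1 rose in B minus A (9.64% of all genes), 1 in C minus A (14.8%), 2 in B minus E (13.3%) and 2 in C minus E (17.4%), with medians of 0.97, 0.56, 0.99 and 0.67. The 6 genes summed to 41.8 to 75.1 CPM in intact rats (median 48.9) and to 52.1 to 437 CPM in injured rats (median 104). The ranges overlapped, since 1 rat of A reached 75.1 CPM and the lowest rat of C had 52.1.

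Mx1 encodes an interferon-induced GTPase that blocks viral replication. It had 4.76 to 12.7 CPM in the 9 intact rats (median 7.00) and 13.2 to 177 CPM in the 8 injured rats (median 34.6), so the groups did not overlap. Within the injured rats it had 19.2, 20.1 and 55.6 CPM in B, 13.2, 49.2 and 15.5 CPM in C, and 61.4 and 177 CPM in D. Both D rats were above all rats of B and C. Its log2(FC) was 2.53 ± 0.33 (SE, edgeR's quasi-likelihood test, FDR 1.6e-05). The log2(FC) was 1.73 in rats 82 to 95 alone, 4.46 in rats 69 to 76 alone, and 1.84 without group D.

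Mx2, the neighboring family member, had 19.5 to 36.0 CPM in intact rats (median 23.7) and 16.3 to 168 CPM in injured rats (median 40.7). The ranges overlapped: rat 89 of C had the lowest value of all 17, and 3 further injured rats, at 30.1 to 32.4 CPM, lay below the highest intact rat. Its log2(FC) was 1.12 ± 0.21 (SE, FDR 0.00053). Reads that Mx1 and Mx2 share are not counted, since the aligner counted uniquely mapped reads, and their levels are uncertain to that extent.

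Oas2 and Oasl belong to the family of oligoadenylate synthetases, enzymes or enzyme-like proteins of the response to double-stranded RNA. Oas2 had 0.469 to 1.18 CPM in intact rats (median 0.833) and 0.868 to 9.54 CPM in injured rats (median 2.39), a log2(FC) of 1.83 ± 0.27 (SE, FDR 5.4e-05). Oasl had 0.417 to 1.65 CPM in intact rats (median 1.05) and 1.04 to 12 CPM in injured rats (median 2.30), a log2(FC) of 1.64 ± 0.34 (SE, FDR 0.00097). Ifit2, which encodes an RNA-binding protein that restrains translation, had 13.9 to 22.0 CPM in intact rats (median 16.3) and 15.9 to 64.0 CPM in injured rats (median 20.9), a log2(FC) of 0.69 ± 0.14 (SE, FDR 0.00088). The ranges of injured and intact rats overlapped in Oas2, Oasl and Ifit2, and the highest injured values were those of rat 76 of group D.

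In the larger run of rats 3 of these genes did not pass the FDR. In rats 82 to 95 alone, Mx1 and Oas2 passed the FDR, with log2(FC) of 1.73 and 1.17, whereas Mx2 (log2(FC) 0.49, FDR 0.11), Oasl (log2(FC) 0.82, FDR 0.073) and Ifit2 (log2(FC) 0.25, FDR 0.13) did not. That fit leaves out 1 rat of A and 1 of E along with group D. Without group D, 4 of the 5 passed and Ifit2 did not (log2(FC) 0.28, FDR 0.064). In D minus the mean of B and C, a contrast added after the values were seen, Oas2 was higher by a log2(FC) of 2.05 ± 0.35 (SE), Mx2 by 1.76 ± 0.32 and Ifit2 by 1.23 ± 0.21, each at an FDR of 0.036. Mx1 was higher by 2.06 ± 0.45 at an FDR of 0.07.

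Uba7, outside that list, encodes the enzyme that activates the interferon-induced modifier Isg15. It had 4.42 to 8.68 CPM in intact rats (median 6.12) and 11.8 to 34.7 CPM in injured rats (median 14.9), with no overlap. By group it had 15.1, 14.3 and 15.9 CPM in B, 12.4, 14.7 and 11.8 CPM in C, and 22.5 and 34.7 CPM in D. The log2(FC) was 1.39 ± 0.13 (SE, edgeR's quasi-likelihood test, FDR 5.4e-07), and it was 1.02 in rats 82 to 95 alone and 2.25 in rats 69 to 76 alone. Uba7 passed the FDR in each of the 6 pairs of groups.

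**Figure D3:**
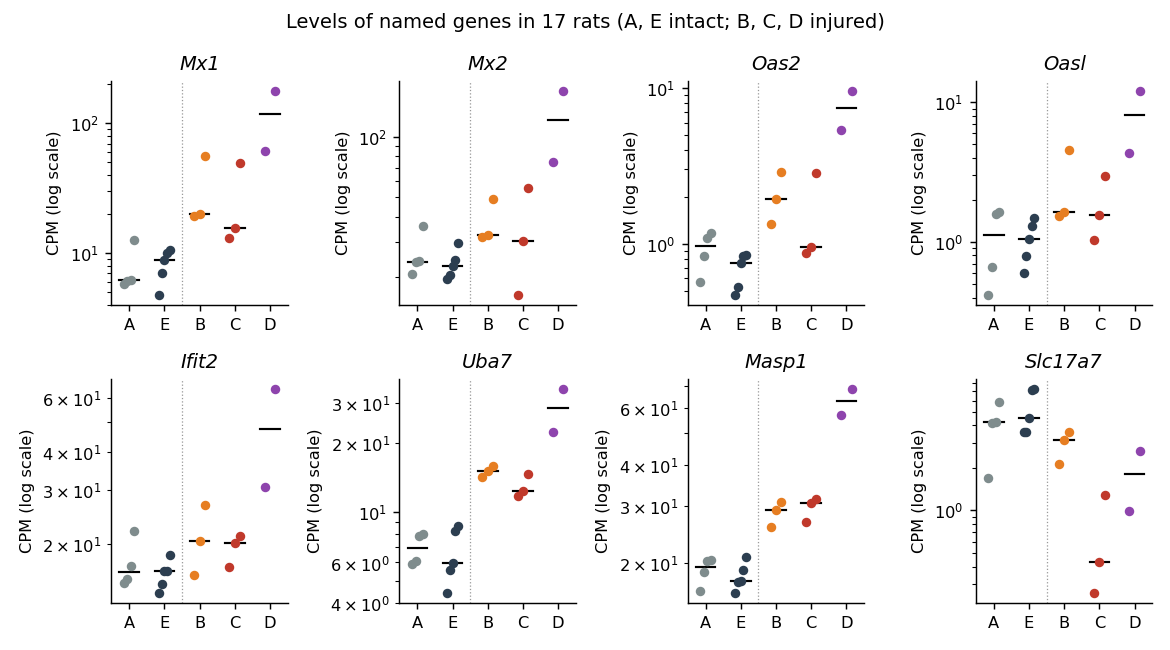
CPM on a log scale of 8 named genes in the 17 rats, 1 point per rat with a bar at the group median and a dotted line between intact (A, E) and injured (B, C, D) groups. Mx1, Uba7 and Masp1 show no overlap of injured and intact rats, and both D rats lie above the other injured rats in every panel except Oasl and Slc17a7.

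Promoters of 4 of these 7 interferon genes were in the RefSeq table (build GRCr8), matched by symbol, each with 250 bases before and 50 after the start site. The core of the interferon-stimulated response element was searched as GAAANNGAA on both strands, and 3251 of 33469 promoters (9.71%) hold it. It was found in Gbp6 and not in the windows of Mx1, Oasl and Uba7. The AP-1 motif, searched as TGACTCA on both strands, was in 4.63% of promoters and in the window of Uba7. The sequences of Mx1, which separated all injured from all intact rats, and of Gbp6, which holds the match, are shown in lower case with the matched core in capitals. The match of Gbp6 begins at position 219, counted from 1 at the first letter.
Mx1, chr11:50294557-50294856, - strand: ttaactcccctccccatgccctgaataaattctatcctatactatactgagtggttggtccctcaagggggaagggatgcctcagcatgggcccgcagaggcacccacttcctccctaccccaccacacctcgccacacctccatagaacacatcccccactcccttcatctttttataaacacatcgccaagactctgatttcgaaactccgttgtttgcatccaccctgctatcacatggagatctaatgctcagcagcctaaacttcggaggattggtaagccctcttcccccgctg
Gbp6, chr14:5034749-5035048, + strand: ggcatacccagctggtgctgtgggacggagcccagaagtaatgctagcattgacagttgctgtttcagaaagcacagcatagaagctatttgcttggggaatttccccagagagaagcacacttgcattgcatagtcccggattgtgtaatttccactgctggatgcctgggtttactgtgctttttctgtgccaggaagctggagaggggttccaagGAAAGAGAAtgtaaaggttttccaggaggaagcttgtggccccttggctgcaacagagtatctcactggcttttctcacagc

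Masp1 had the lowest p of the named genes. It encodes a serine protease of the lectin pathway, which starts the complement cascade after recognition of sugars on surfaces. It had 16.2 to 20.8 CPM in the 9 intact rats (median 18.7) and 25.8 to 68.5 CPM in the 8 injured rats (median 30.7). By group it had 30.8, 29.0 and 25.8 CPM in B, 31.5, 30.6 and 26.8 CPM in C, and 57.1 and 68.5 CPM in D. The rats of B and C were alike in range, the D rats stood apart, and no injured rat reached down to the intact rats. The log2(FC) was 1.01 ± 0.070 (SE, edgeR's quasi-likelihood test, FDR 2.1e-08), with rank 48 of all genes by p. It was 0.61 in rats 82 to 95 alone and 1.91 in rats 69 to 76 alone. D exceeded the mean of B and C by a log2(FC) of 1.11 ± 0.11 (SE, FDR 0.00015).

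Fcnb and Timd2 rose from low levels. Fcnb encodes ficolin B, a sugar-binding protein of myeloid cells that feeds the same lectin pathway. It had 0.208 to 2.66 CPM in intact rats (median 1.58) and 2.12 to 14.2 CPM in injured rats (median 5.73), a log2(FC) of 1.92 ± 0.31 (SE, FDR 0.00014). Timd2, a member of the Tim family of surface receptors, had 0 to 0.680 CPM in intact rats (median 0.210) and 0.459 to 3.18 CPM in injured rats (median 1.47), a log2(FC) of 2.56 ± 0.45 (SE, FDR 0.00025). Both genes had the same sign in all 6 pairs. In edgeR's quasi-likelihood test both passed in the 4 pairs with C or D, and neither passed in the pairs with B, where the FDR was 0.18 in B minus A and 0.13 in B minus E for Fcnb and 0.20 and 0.18 for Timd2. In both the lowest injured rats, of group B, overlapped the highest intact rats.

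Ltc4s and Hnrnpa2b1 passed the FDR without holding in every pair. Ltc4s, the synthase of the inflammatory lipid leukotriene C4, had a log2(FC) of 0.90 ± 0.21 (SE, FDR 0.0023). It was 1.09 in B minus A, 2.06 in D minus A and -0.24 in C minus E, and in rats 82 to 95 alone it did not pass (log2(FC) 0.36, FDR 0.29). The average over the injured groups therefore does not describe group C for this gene.

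Slc17a7 was the 1 named gene that passed the FDR as a fall and was lower in all 6 pairs. It encodes the vesicular glutamate transporter VGLUT1, which loads glutamate into synaptic vesicles. It had 1.71 to 7.26 CPM in the 9 intact rats (median 4.24) and 0.261 to 3.58 CPM in the 8 injured rats (median 1.70). By group it had 3.58, 3.17 and 2.12 CPM in B, 0.261, 1.29 and 0.434 CPM in C, and 0.998 and 2.64 CPM in D. The lowest values were those of 2 C rats, and the ranges of injured and intact rats overlapped, mainly through rat 83 of A at 1.71 CPM. The log2(FC) was -1.58 ± 0.31 (SE, edgeR's quasi-likelihood test, FDR 0.00059), from -0.42 in B minus A to -2.98 in C minus E, and the difference of these did not pass (FDR 0.92). In rats 69 to 76 alone it was -1.37 (FDR 0.19). In edgeR's quasi-likelihood test of the pairs, Slc17a7 passed in C minus A, C minus E and D minus E. It did not pass in B minus A (FDR 0.55), B minus E (FDR 0.18) or D minus A (FDR 0.12). The study lists it for a lower level in C than in B, so the low values in C are partly how it was chosen.

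The other 3 coding genes that fell did not hold in each group. RGD1564883, which the study annotates as similar to a ribosomal protein, had the largest fall of the named genes with a log2(FC) of -4.41 ± 1.37 (SE, FDR 0.016). It had 3 counts in all rats of B, 0 in both rats of D and 500 in those of C, and among intact rats 459 in A and 163 in E. Its log2(FC) was -6.65 in B minus A and 2.38 in C minus E. Injured and intact rats both held high and near-zero values, and a fit with 1 coefficient for injury gave -0.17 (FDR 0.90). Rps21-ps1 (log2(FC) -0.66, FDR 0.047) and Gnb3 (log2(FC) -0.76, FDR 0.050) lay at the edge of the threshold, and neither kept its sign in all 6 pairs.

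Blood-borne cells are the source of other lists that could be matched. Red cells carry globins and the enzymes of heme synthesis, neutrophils their granule proteins, and platelets their receptors. Of 15 tested erythroid and globin genes, 0 passed the FDR in injured against intact rats in edgeR's quasi-likelihood test, with a median log2(FC) of -0.037 and 0 at an unadjusted p under 0.05. Of 12 neutrophil and marrow genes 1 rose, the Fcnb described above, and 11 did not pass, with a median of 0.22. Of 6 platelet genes 0 passed, and 0 had an unadjusted p under 0.05, with a median of 0.32. These medians stand beside -0.033 over all genes tested, of which 22.5% rose and 22.7% fell at the FDR. With DESeq2, 0 erythroid and 0 platelet genes passed, and Epx, the peroxidase of eosinophils, was the 1 neutrophil and marrow gene that fell (log2(FC) -1.29, FDR 0.049). Epx also passed in rats 82 to 95 alone (log2(FC) -1.54, FDR 0.022), and it had an FDR of 0.079 in edgeR's quasi-likelihood test of all rats.

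The averages of these lists concealed opposite values in the groups. In C minus E the median log2(FC) was 1.75 for the erythroid list (13 of 15 rose), 2.41 for the neutrophil list (8 of 12 rose) and 1.95 for the platelet list (6 of 6 rose), where 17.4% of all genes tested rose. In B minus A the medians were -1.14, -1.09 and -0.69, and 0 of these genes passed in edgeR's quasi-likelihood test, with 4, 2 and 0 at an unadjusted p under 0.05. At the FDR, 9.64% of all genes tested rose there and 421 of 15460 fell. C minus A had medians of 0.78, 1.77 and 1.34, and 2 genes of each list rose, where 14.8% of all genes did. D minus A had medians of -1.25, -0.74 and -0.88, with 0, 1 and 0 rises, where 14.6% of all genes rose. It had 1 fall, of an erythroid gene, where 9.97% of all genes fell. The study chose most of these genes for a difference between C and B, so the opposite signs are not independent evidence. Mpo, the myeloperoxidase of neutrophil granules, had a log2(FC) of 2.74 in C minus E and -1.15 in B minus A. The values of 2 members that did not pass in C minus E were 1.75 (FDR 0.062) and -0.27 for S100a8, a calcium-binding protein abundant in neutrophils, and 1.00 (FDR 0.096) and -1.14 for Hbb, the globin beta chain. Globin genes share near-identical sequence and their separate counts are uncertain.

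The summed levels by rat show the same spread. The erythroid and globin genes summed to 236 to 1810 CPM in injured rats and to 214 to 1090 CPM in intact rats. The neutrophil list summed to 20.6 to 173 CPM in injured and to 6.56 to 102 CPM in intact rats, and all 3 C rats, at 102, 158 and 173 CPM, lay above the B rats at 20.6 to 29.7 CPM. The platelet list summed to 17.7 to 24.1 CPM in C, 5.96 to 8.62 CPM in B, and 5.21 to 21.3 CPM in A. Intact and injured rats overlapped in all 3 lists. What blood left in the tissue contributed to the called genes was not tested.

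Small and structural RNAs gave falls that did not follow the injury. Of 32 tested snRNAs, snoRNAs and other structural RNAs that could be named, 0 rose and 14 fell (43.8%) at an FDR under 0.05, where 22.7% of all genes tested fell. Their median log2(FC) was -0.70, against -0.033 over all genes, and 0 of the 14 had the same sign in all 6 pairs. These RNAs have a symbol because the study lists them for a change with stimulation or pimozide in injured rats. A difference of D from C is thus partly how they were chosen, and the count of signs is not independent of that choice. AABR07060522.2, annotated as a miscellaneous RNA, had 88.9, 1200, 78.2 and 84.7 CPM in rats 70, 82, 83 and 84 of A, and 564 to 1800 CPM in E. It had 49.8 to 91 CPM in B, 54.0 to 88.5 CPM in C, and 737 and 926 CPM in D. The values fell into a low and a high range, and both ranges held injured and intact rats.

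The 33 named RNAs of this kind repeated that split when summed. The sum was 374 to 622 CPM in B and C and in rats 70, 83 and 84 of A, and 1970 to 5000 CPM in D, in E and in rat 82 of A. The log2(FC) of AABR07060522.2 was -1.96 ± 0.51 (SE, edgeR's quasi-likelihood test, FDR 0.0052), but it was 0.27 (FDR 0.89) in rats 69 to 76 alone. Hnrnpa2b1, an RNA-binding protein of splicing and transport, ran the other way, with 126 to 210 CPM in the rats with low sums and 79.3 to 108 CPM in those with high sums. Its log2(FC) was 0.41 ± 0.095 (SE, FDR 0.0023) for injury and -0.92 ± 0.17 (SE, FDR 0.036) for D minus the mean of B and C. Both ranges of the sum occur within group A, where all rats had the same treatment.

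**Figure D4:**
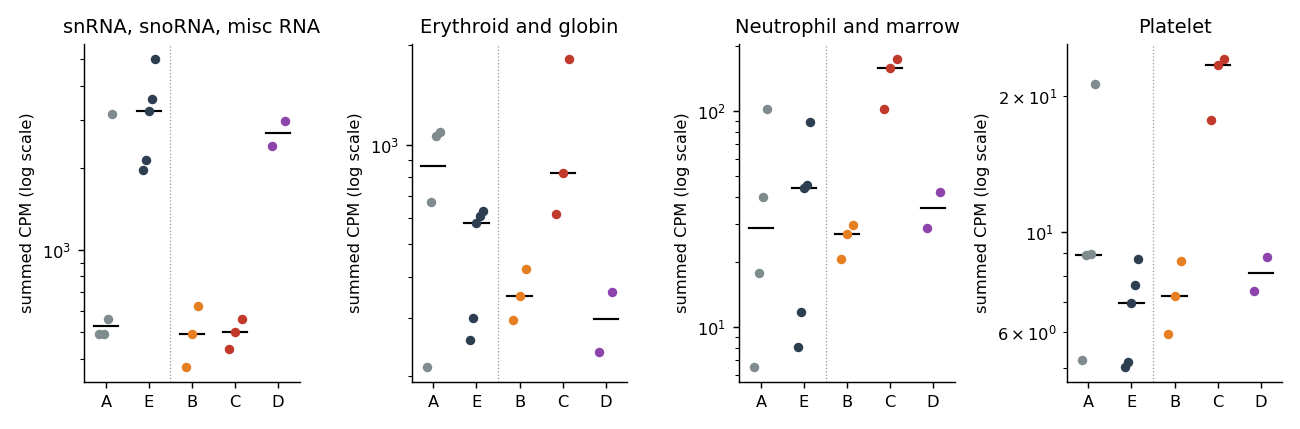
Summed CPM on a log scale of 33 small and structural RNAs, 15 erythroid and globin genes, 12 neutrophil and marrow genes and 6 platelet genes in the 17 rats, with a bar at the group median. The small RNAs lie in a low range in B, C and 3 rats of A and in a high range in D, E and 1 rat of A, and in the 3 blood lists injured and intact rats overlap.

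Since 6 of 9 intact rats and 2 of 8 injured rats had high sums of these RNAs, the sum moved with the injury comparison. A fit with the log2 of this sum as a covariate, added after the values were seen, called 972 genes higher and 54 lower, and 1002 of these had the same sign in all 6 pairs. At the FDR alone it left 2724 rises and 2311 falls, in place of 3471 and 3505. Mx1, Uba7, Masp1 and Slc17a7 passed with log2(FC) of 2.45, 1.32, 1.04 and -1.41. The part of these RNAs in the remaining small falls was not tested beyond this fit.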

How the data were processed

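RNA of 17 rats was measured as counts of reads per Ensembl gene. The authors demultiplexed with bcl2fastq (1.8.4 in the submitters' processing notes, another version in the methods), trimmed with Trim Galore 0.4.1, aligned single-end reads with STAR 2.5.0a, which counts uniquely mapped reads, and deposited unnormalized whole-number counts of 32494 genes. The strand column counted is not stated. The methods name Rnor_5.0 and the submitters' processing notes Rnor_6.0, so no coordinates of the counted genes are given. The deposited table has 0 columns of other samples.

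Groups came from the letter in the sample names. Genes were kept by filterByExpr of edgeR 4.0.16 (R 4.3.3), scaled by TMM (factors 0.966 to 1.05) and fitted with 1 coefficient per group. The contrast was the mean of B, C and D minus the mean of A and E, tested with glmQLFTest, and FDR is the Benjamini-Hochberg adjusted p over all genes tested. Calls required an absolute log2(FC) above 1 together with an FDR under 0.05. CPM are TMM-scaled. Totals of 9852873 counts or more put about 10 counts behind 1 CPM, and the spread between rats sets the precision. The test was tested on simulated data. Figures and tables were made with Python 3.11.15 (pandas 2.3.3, numpy 2.4.6, matplotlib 3.10.9).

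Symbols came from a supplementary table of the study, which paired 99 identifiers, and its values were not used. Of 41 gene lists, 34 matched no member and 1 matched 80% or more. Of the lists planned for promoter motifs (cholesterol, interferon, cell division and cytokine), only the interferon list had members that could be matched, and these and Uba7 were searched for ISRE and AP-1 only. The rats compared and the lists were chosen with earlier results of these data known. Named genes are members of lists that could be matched, named genes with no overlap of injured and intact rats, a mean of 5 CPM or more and a call, and the lowest p in each direction, limited to 2 identifiers each. Named genes that passed the FDR outside this rule (Timd2, Ltc4s, Hnrnpa2b1, Slc17a7, RGD1564883, Rps21-ps1, Gnb3 and the small RNAs) were added after their values were seen. Alternatives were DESeq2 1.42.0, edgeR's exact test, RLE and total-count scaling, other filters, 2 coefficients, robust dispersions, the number runs as a term or alone, no group D, and each of 17 rats left out. No replicate number is shared between groups.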

Additional observations from a re-analysis of the deposited data

Results flagged for a closer look

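Of the tested genes with a symbol, 15 differed between D and the mean of B and C in the quasi-likelihood test of edgeR (Benjamini-Hochberg FDR), a contrast added after the values were seen. Oas2 was higher in D by a log2(FC) of 2.05, Mx2 by 1.76, AC097575.3 by 1.64 and Ifit2 by 1.23, each at an FDR of 0.036, and Masp1 by 1.11 at an FDR of 0.00015. Hnrnpa2b1 fell by 0.92 on the log2 scale (FDR 0.036). Of the 15, 10 were small or structural RNAs, AC097575.3 among them, all higher in D by log2(FC) of 1.64 to 4.02, and the summed level of the named RNAs of this kind has a low and a high range, with both D rats in the high one. Over all genes, 15 were higher and 6 lower, which is 0.136% of genes tested. The study listed these genes partly for a change with pimozide, so they are not independent evidence, and drug and number run cannot be told apart.

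RGD1564883 went in opposite directions in the pairs of groups, with every B rat below every A rat (log2(FC) -6.65) and every C rat above every E rat (log2(FC) 2.38). The difference of the 2 had an FDR of 0.80 and did not pass.

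Single rats stood apart in 2 of 58 checks of a gene within the 8 injured or the 9 intact rats, where chance gives about 1 in 20. Slc17a7 had 1.71 CPM in rat 83 of group A, against 3.57 to 7.26 CPM in the other intact rats. Elane, the elastase of neutrophils, had 2.27 CPM in rat 84 of group A, against 0 to 0.375 CPM in the other intact rats.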

How the results depend on the processing

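Rises made up 91% to 98.4% of called genes in each alternative that kept the limit on fold change, whereas the number of falls depended on the settings. Without that limit 6976 genes passed, of which 49.8% rose. Without a filter on low counts 121 genes were called lower, 99 of them lower in all 6 pairs. With the exact test and the scaling and gene set of the methods 2325 falls passed the FDR, and 62.1% of passing genes were rises, against 49.8%. With the summed small RNA level as a covariate 2311 falls passed. Rats 69 to 76 alone, a set of 4 added after seeing the data, gave 686 called genes (675 higher, 11 lower) and 753 at the FDR (735 higher, 18 lower). There the signs of Hnrnpa2b1 (-0.10), AABR07060522.2 (0.27), AABR07060522.3 (0.45), AC097575.3 (0.25), AABR07050379.1 (0.28) and Rps21-ps1 (0.49) reversed on the log2 scale, and that of Gnb3 did in rats 82 to 95 alone (0.12) and without group D (0.082). The causes were not tested.

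Leaving out 1 rat at a time gave 1003 to 1343 called genes (932 to 1230 higher, 51 to 113 lower), 5078 to 7532 at the FDR (2769 to 3767 higher, 2309 to 3849 lower), 982 to 1315 called genes with 1 sign in all 6 pairs (927 to 1220 higher, 43 to 95 lower) and 0 to 3 genes for the difference between the injury effects. Without rat 75 of group D 113 genes were called lower, 95 of them in all 6 pairs, and without rat 76 2309 falls passed the FDR. Of 31 alternatives, Gnb3 lost the FDR in 23 without a change of sign and Rps21-ps1 in 19, RGD1564883 in 5, the named small RNAs in 3 or 4, Ifit2 and Ltc4s in 2, Slc17a7, Oasl, Mx2, ENSRNOG00000027742 and Timd2 (FDR 0.20 in rats 69 to 76 alone) in 1, and Mx1, Oas2, Uba7, Masp1 and Fcnb in 0. Epx gained the FDR in 4, with DESeq2, in rats 82 to 95 alone, with the small RNA covariate (-1.71) and without rat 70, and S100a8 in 1, rats 69 to 76 alone (2.36, FDR 0.02). The 6 pairs of groups could not be formed in fits with 1 coefficient for injury or in those without group D. No paired analysis was possible because the groups share no replicate numbers. Gene names limit these results: 98 of 15460 genes tested carry one.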
